A study of Homo sapiens with 18 samples.

Results

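HEK293 cells that carry the S547A form of p65 were compared after 8 h of etoposide and without treatment, over every gene whose probe was detected (detection p under 0.05) on at least 3 of the 18 bead arrays of the series. That rule left 22161 of 47231 probes, of which 16005 carry 1 gene symbol and read 12055 genes, and it takes 6 arrays, 3 of cells given etoposide for 8 h and 3 of untreated cells. HEK293 is an embryonic human kidney line. In all groups the cells' own p65, encoded by RELA, was silenced with siRNA, and HA-tagged p65 that this siRNA does not reach was supplied from a lentivirus, as S547A or as wild type (wt). The other groups used here are S547A cells given etoposide for 4 h, wt cells given it for 8 h and untreated wt cells, with 3 arrays each. Per the series text the 3 arrays of a group come from independent experiments. No etoposide dose is stated, and how many clones each line holds and how much p65 protein it makes are not given in the sources used here.

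p65 pairs with p50 to form the most studied NF-kB dimer, which IkB proteins hold in the cytoplasm until IkB kinase marks them for destruction. Free dimers bind kB sites and switch on cytokine, adhesion and survival genes as well as their own inhibitors. Etoposide traps topoisomerase II on cut DNA. The resulting breaks activate the kinase ATM, which can start NF-kB signalling from the nucleus and is known to phosphorylate the serine that S547A replaces with alanine. HEK293 cells also hold adenovirus E1 genes, whose products bind p53 and the RB proteins.

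Levels below are background-corrected, quantile-normalized log2 intensities, and values of 3 arrays stand in the order of replicates 1, 2 and 3. Genes count as called where limma's p, adjusted over all genes tested by Benjamini-Hochberg, is below 0.05. Errors after a log2 change are standard errors. Where no array of the dimmer group detected a probe, its change is given as "at least N-fold", computed against the lowest detected level of each dimmer array. Detected probes made up 35.8% to 39.2% of each array. Across genes, the 8 h arrays correlated with each other at r = 0.985 to 0.987, the untreated arrays at 0.985 to 0.986, and 8 h with untreated arrays at 0.956 to 0.961. RELA itself stood at 9.68, 9.59 and 9.80 on the 8 h arrays and at 8.82, 8.69 and 9.09 on the untreated arrays, a rise of 0.83 ± 0.15 on the log2 scale (adjusted p = 0.000411). Its probe may read the cells' own and the supplied transcript, and these were not told apart.

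Of 12 genes associated with HEK293 cells, 10 were tested and 8 were detected on all 3 arrays at 8 h, while GATA3 was detected on none of the 8 h arrays. Of these markers 2 were called higher and 3 lower, among them NEFL, a neurofilament subunit, at -1.81 ± 0.16. The summed log2 level of the 10 was 81.9 to 84.0 at 8 h and 84.8 to 85.4 untreated. Markers of other cell types were mostly absent. All 10 endothelial markers failed the filter, as did 6 of 10 blood markers, 4 of 10 fibroblast markers and 7 of 8 keratinocyte markers. None of the 11 such markers that were tested was called. Their summed levels ranged over 23.8 to 24.9 at 8 h and 24.3 to 26.0 untreated for blood, and over 29.4 to 31.8 at 8 h and 30.3 to 32.3 untreated for fibroblasts. In RNA from whole cultures, fewer cells that express a gene and less RNA per cell cannot be told apart.

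After 8 h of etoposide 30.5% of the genes tested were called, 1945 higher (16.1%) and 1729 lower (14.3%). Counts of called members of gene groups below are to be read against these shares. A called change of at least 2-fold was rarer, 4.14% of genes higher and 1.97% lower. The middle of the called changes was 0.70 on the log2 scale, with quartiles of 0.53 and 0.93, while the median over all genes was -0.01. Arrays of the 2 groups did not overlap for 42% of genes. The share of calls that point up depends on the scaling. It was 52.9% with quantile normalization, 77.1% with arrays scaled to a common median over all probes, and 42.1% with arrays scaled to the median of probes detected on all arrays, a setting added after the data were seen. These scalings moved the median of all genes to 0.11 and to -0.11 on the log2 scale, and changes of single genes are to be read against that shift. For some groups it was larger. The median of cytoplasmic ribosomal protein genes went from 0.02 to -0.40 with the last of these scalings. Another 6156 kept probes have no single gene symbol, of which 334 were called higher and 430 lower.

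**Figure D1:**
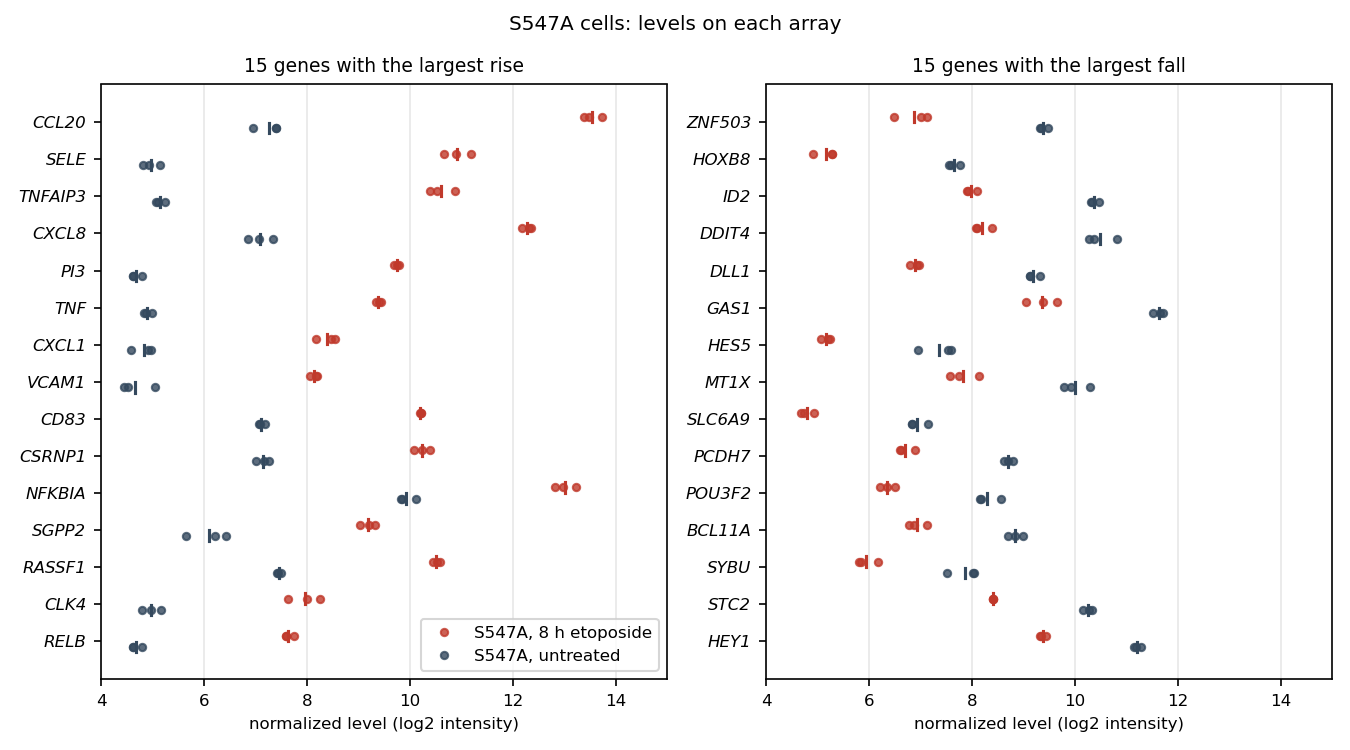
Level of each gene (log2 intensity, horizontal axis) on each array of S547A cells given etoposide for 8 h (red) and untreated (blue), with a tick at each group's mean. The left panel holds the 15 called genes with the largest rise, from CCL20 to RELB, and the right panel the 15 with the largest fall, from ZNF503 to HEY1. For each gene the 8 h arrays lie on 1 side of all untreated arrays, which the choice of these genes required.

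Chemokines and cytokines under NF-kB control were among the genes that rose most. CCL20, a chemokine that draws CCR6-bearing lymphocytes, stood at 13.49, 13.74 and 13.39 at 8 h and at 6.96, 7.41 and 7.41 untreated (log2 change 6.28 ± 0.17, adjusted p = 6.8e-14). CXCL8, the neutrophil attractant interleukin 8, stood at 12.18, 12.36 and 12.32 at 8 h and at 6.87, 7.06 and 7.33 untreated (5.20 ± 0.19). Both genes were already well detected in untreated cells, and their arrays are far apart. TNF, the cytokine that itself activates NF-kB, was detected on no untreated array and was at least 17.4-fold higher at 8 h, with 9.34, 9.40 and 9.43 against 4.98, 4.88 and 4.84. CXCL1, another neutrophil attractant, was at least 8.71-fold higher, with 8.54, 8.18 and 8.47 at 8 h against 4.92, 4.97 and 4.59. IL32, a cytokine of lymphocytes and epithelial cells, rose by 2.73 ± 0.19. In all, 9 of the 16 chemokine and cytokine genes tested were called higher and 0 lower, and 12 of 28 on the list did not pass the filter. Of the 16, 7 were undetected on all untreated arrays, and genes of this kind pass the filter through the groups where they are high. Their median log2 change was 1.35, or 1.33 with the 4 genes that have a bound held at it, against -0.01 over all genes. Undetected genes for which no bound could be given kept their fitted change, here and in such medians below.

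A list of adhesion and matrix genes, some of them surface proteins, had 9 of 11 tested higher and 1 lower, with a median of 2.26. It also holds other NF-kB targets, among them PI3 and SGPP2, and is called the adhesion genes for short. Of these 11, 5 were undetected on all untreated S547A arrays and entered through other groups, so the count and median describe the genes that passed. SELE, or E-selectin, on which leukocytes roll, stood at 10.66, 11.18 and 10.89 at 8 h and at 4.82, 4.94 and 5.15 untreated, where it was not detected, so the rise is at least 49.8-fold (adjusted p = 1.12e-12). VCAM1, the ligand of the integrin VLA-4, stood at 8.06, 8.20 and 8.17 against 4.45, 4.52 and 5.04, at least 7.31-fold. PI3, or elafin, an inhibitor of neutrophil elastase, was at least 22.2-fold higher, with 9.70, 9.79 and 9.75 against 4.63, 4.80 and 4.62. All 3 genes were undetected on every untreated array and detected on every 8 h array. Probes disagree for SELE and VCAM1. A further SELE probe showed a log2 change of 0.13 and was not called. The 2 further VCAM1 probes showed 0.46, not called, and 0.82, called, and these 3 probes were dim, with mean levels of 4.90 to 5.28. CD83, a surface protein of activated dendritic cells, rose by 3.09 ± 0.13. SGPP2, a phosphatase of sphingosine 1-phosphate, rose by 3.08 ± 0.19. The member called lower was ICAM5, a neuronal adhesion molecule, at least 1.55-fold lower.

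The promoter windows of 4 of these genes are given so that the kB-like letters in them can be seen. Each runs from 250 bases before to 50 bases after the gene's start in RefSeq (GRCh38.p14), 5′ to 3′ on the gene's strand, and capitals mark every match, on either strand, of a simple kB pattern: GGG, then 5 bases of any kind, then CC. The windows are SELE at chr1:169734030-169734329 on the minus strand, VCAM1 at chr1:100719492-100719791, CCL20 at chr2:227813592-227813891 and TNFAIP3 at chr6:137867009-137867308, these 3 on the plus strand.
SELE: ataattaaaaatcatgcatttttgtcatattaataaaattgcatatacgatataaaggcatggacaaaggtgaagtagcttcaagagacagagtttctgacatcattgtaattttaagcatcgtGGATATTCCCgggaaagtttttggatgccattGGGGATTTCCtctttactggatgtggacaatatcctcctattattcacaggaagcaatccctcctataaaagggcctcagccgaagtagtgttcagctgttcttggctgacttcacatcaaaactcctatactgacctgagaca
VCAM1: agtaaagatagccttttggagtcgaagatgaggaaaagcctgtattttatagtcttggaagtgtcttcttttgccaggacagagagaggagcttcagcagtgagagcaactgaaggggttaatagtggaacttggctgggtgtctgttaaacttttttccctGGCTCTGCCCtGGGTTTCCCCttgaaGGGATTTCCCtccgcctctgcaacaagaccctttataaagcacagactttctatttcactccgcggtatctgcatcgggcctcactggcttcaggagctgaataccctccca
CCL20: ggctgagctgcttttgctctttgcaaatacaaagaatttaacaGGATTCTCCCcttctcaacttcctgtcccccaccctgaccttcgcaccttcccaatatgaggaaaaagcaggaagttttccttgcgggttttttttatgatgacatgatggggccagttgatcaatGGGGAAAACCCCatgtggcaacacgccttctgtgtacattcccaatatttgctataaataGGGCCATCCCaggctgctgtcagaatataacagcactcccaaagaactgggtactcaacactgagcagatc
TNFAIP3: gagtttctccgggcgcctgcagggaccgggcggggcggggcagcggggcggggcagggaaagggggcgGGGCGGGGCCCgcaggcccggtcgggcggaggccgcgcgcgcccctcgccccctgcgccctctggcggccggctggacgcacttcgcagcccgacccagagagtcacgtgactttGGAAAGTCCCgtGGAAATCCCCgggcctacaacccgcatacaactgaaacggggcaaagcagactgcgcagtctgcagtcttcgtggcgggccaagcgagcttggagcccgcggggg
Counted from the start, the matches begin at -126 and -94 in SELE, at -88, -77 and -62 in VCAM1, at -207, -81, -80, -79 and -21 in CCL20, and at -182, -181, -67 and -55 in TNFAIP3. Those at -81 to -79 in CCL20 and at -182 and -181 in TNFAIP3 overlap each other. A match is common. It was found in 12 of 12 windows of the chemokine and cytokine genes, 9 of 10 of the adhesion genes and 13 of 14 of the feedback inhibitors, but also in 72.4% of the 9653 windows of genes tested, 74.7% of the 419 of genes called at least 2-fold higher and 75.4% of the 191 of genes called at least 2-fold lower.

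Several inhibitors that end NF-kB signalling rose. TNFAIP3, the ubiquitin-editing enzyme A20, stood at 10.40, 10.52 and 10.89 at 8 h and, undetected, at 5.07, 5.10 and 5.25 untreated, at least 40.2-fold higher. NFKBIA, which encodes IkB alpha, stood at 12.83, 12.97 and 13.24 against 10.12, 9.84 and 9.82, a rise of 3.08 ± 0.15. The deubiquitinase gene CYLD rose by 1.88 ± 0.26, and BCL3, an IkB protein that works in the nucleus, was at least 2.23-fold higher. Of 15 inhibitors tested, 6 were called higher and 0 lower, and the median change was 0.33. Among subunits and upstream kinases 9 of 18 were called higher and 0 lower (median 0.35). RELB was at least 5.16-fold higher, with 7.59, 7.59 and 7.75 at 8 h against 4.80, 4.62 and 4.63. NFKB2 rose by 1.87 ± 0.18, NFKB1 by 1.36 ± 0.12 and REL by 1.19 ± 0.30, so all of the NF-kB subunit genes were called higher. Of receptors, TRAF adaptors and IAP genes 8 of 19 were called higher and 1 lower. TNFRSF9, the costimulatory receptor 4-1BB, stood at 8.47, 8.82 and 8.60 against 5.33, 5.46 and 6.38 (2.90 ± 0.28). TNFRSF12A, the receptor of TWEAK, rose by 2.53 ± 0.19 and TRAF4 by 1.27 ± 0.19, while TNFAIP8 fell by 0.43 on the log2 scale (SE 0.12).

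**Figure D2:**
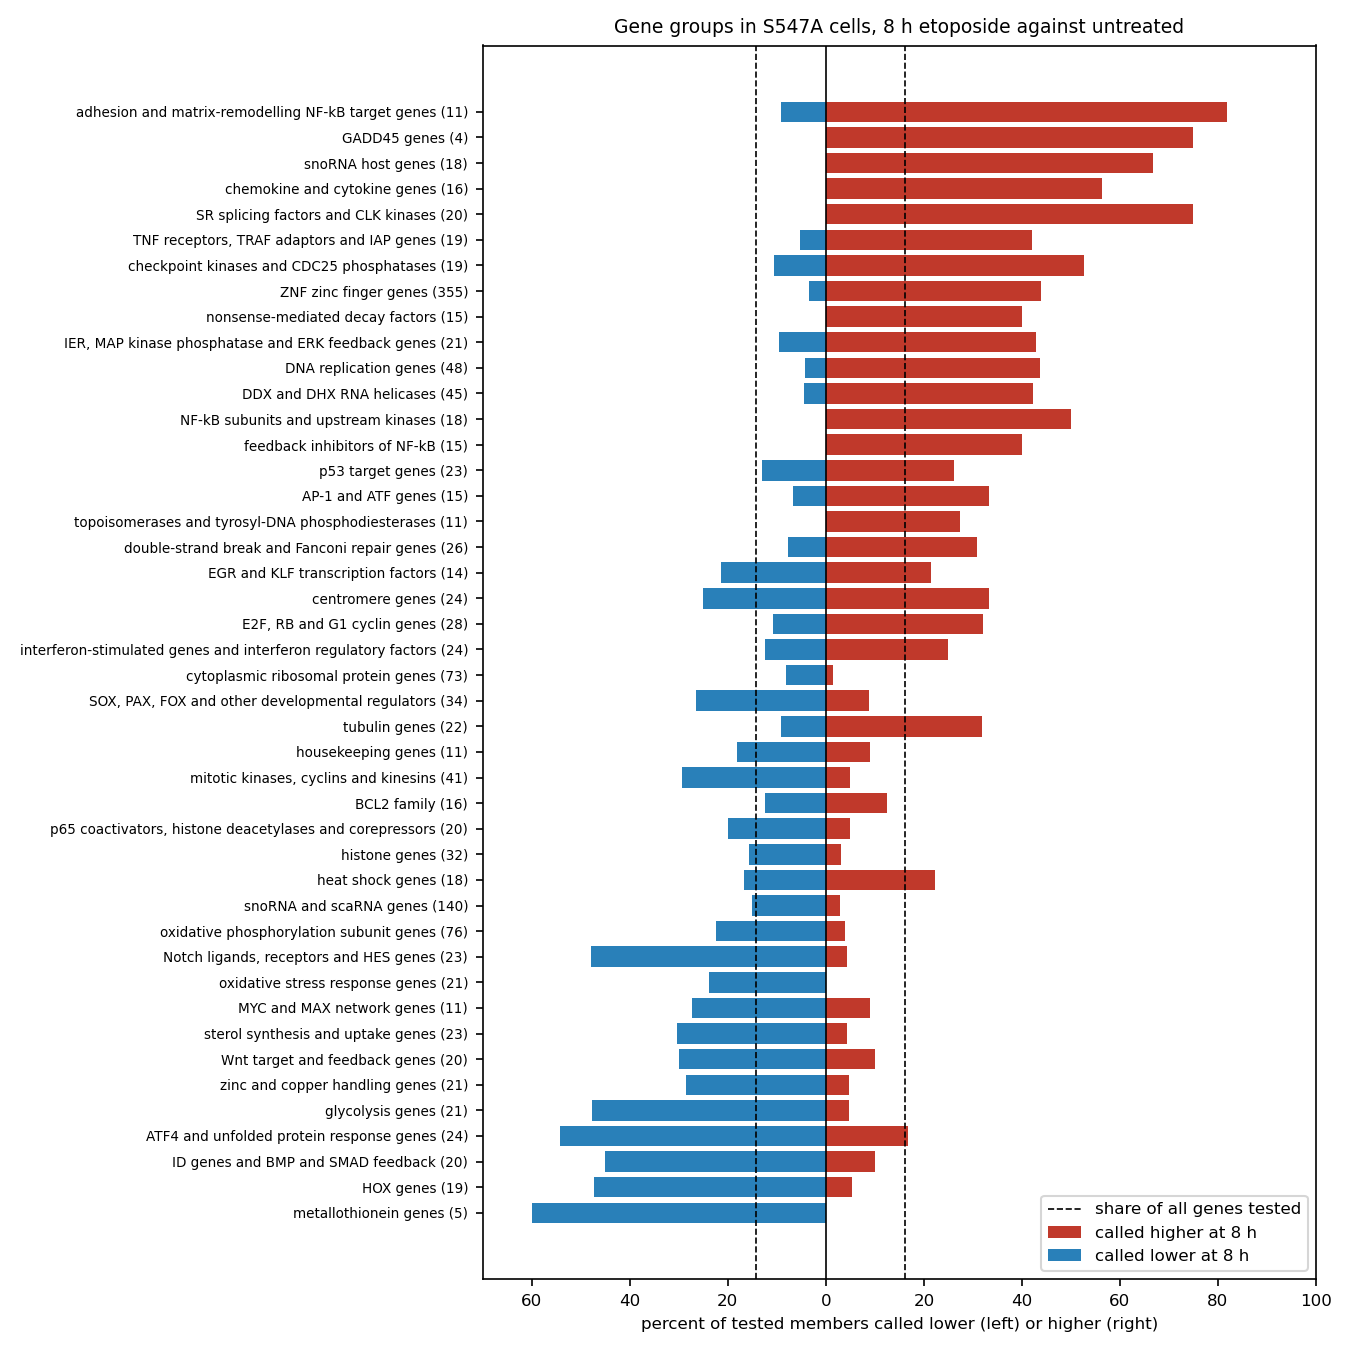
Share of the tested members of each gene group that was called higher (red, to the right) or lower (blue, to the left) in S547A cells at 8 h against untreated cells, with the number tested in brackets and groups ordered by their median log2 change. Dashed lines mark the shares over all genes, 16.1% higher and 14.3% lower. Adhesion genes, SR and CLK genes, GADD45 genes and snoRNA host genes reach farthest right, and metallothionein and ATF4 genes farthest left.

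Immediate early genes had mixed calls at 8 h. EGR1, a zinc finger activator that growth signals switch on within minutes, stood at 8.24, 8.69 and 8.62 at 8 h and at 5.61, 6.32 and 5.44 untreated (2.73 ± 0.23). Of EGR and KLF genes 3 of 14 were called higher and 3 lower, the lowest being KLF4 (-1.26 ± 0.17) and KLF13 (-1.12 ± 0.16), and their median of 0.07 turned to -0.03 with arrays scaled to the median of detected probes. ATF3, a stress-induced bZIP factor, rose by 2.22 ± 0.12, JUN by 1.37 ± 0.12 and ATF2 by 1.06 ± 0.18, and JUNB was at least 1.63-fold higher. In that AP-1 and ATF group 5 of 15 were called higher and 1, JDP2, lower, and its median of 0.21 turned to -0.02 with the same scaling. Negative regulators of MAP kinases rose in part. DUSP1, a phosphatase of p38 and JNK, rose by 1.48 ± 0.17, DUSP8 by 1.16 ± 0.17 and SPRED2, an inhibitor of the RAS to ERK pathway, by 0.99 ± 0.16. ZFP36, which speeds the decay of TNF mRNA, rose by 1.31 ± 0.21. Of 21 genes in the wider group of IER, MAP kinase phosphatase and ERK feedback genes 9 were called higher. The 2 called lower were MYC (-0.55 ± 0.13) and IER5 (-0.70 ± 0.13).

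Among damage-response genes the GADD45 family, which binds cyclin and MAP kinase complexes, moved most. GADD45A stood at 11.50, 11.50 and 11.35 at 8 h and at 8.81, 8.89 and 8.70 untreated (2.65 ± 0.12). GADD45B rose by 1.91 ± 0.18 and GADD45G by 1.75 ± 0.13, while GADD45GIP1, which encodes a mitochondrial ribosome protein, was at -0.11 ± 0.22 and was not called. Of p53 target genes 6 of 23 were called higher (26.1%, against 16.1% over all genes) and 3 lower (13.0%, against 14.3%), with a median of 0.26. CDKN1A, the cell cycle inhibitor p21, rose by 1.05 ± 0.13, PPM1D, a phosphatase that ends p53 signalling, by 1.11 ± 0.15 and the nuclease gene AEN by 1.24 ± 0.18. The apoptosis effector BAX stood at 9.00, 9.21 and 9.28 at 8 h against 10.10, 10.14 and 10.01 and fell by 0.92 on the log2 scale (SE 0.13). SESN2, an inhibitor of mTORC1, fell by 1.53 on the log2 scale (SE 0.30), and PHLDA3 by 0.71 (SE 0.24). Of BCL2 family genes 2 of 16 were called higher (12.5%) and 2 lower (12.5%), both below the shares over all genes. The survival gene MCL1 rose by 1.07 ± 0.16. The median of -0.05 in that family was 0.08 with arrays scaled to a common median.

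Checkpoint and S phase genes rose in larger numbers. Of checkpoint kinases, their partners and CDC25 phosphatases 10 of 19 were called higher and 2 lower, with a median of 0.44. CDC25A, which drives entry into S phase, stood at 11.23, 11.05 and 11.45 at 8 h and at 9.64, 9.96 and 9.76 untreated (1.46 ± 0.16). PKMYT1, an inhibitory kinase of CDK1, rose by 0.91 ± 0.15, whereas CDC25B, which starts mitosis, and CHEK2 fell by 0.72 (SE 0.14) and 0.63 (SE 0.19) on the log2 scale. Other probes of PKMYT1 and CHEK2 showed 0.44 and -0.32 and were not called. EXO1, which resects DNA ends, rose by 1.55 ± 0.10 and BARD1, the partner of BRCA1, by 0.99 ± 0.12, in a repair group with 8 of 26 called higher and 2 lower, or 5 higher and 1 lower without 8 h replicate 1. Of topoisomerases and their repair enzymes 3 of 11 were called higher and 0 lower, or 2 lower with arrays scaled to the median of detected probes. Those called higher were TOP3A (0.79 ± 0.16), TOP3B (0.78 ± 0.15) and RMI1 (0.43 ± 0.16), none of them the topoisomerase II that etoposide binds. Other probes of TOP3A and RMI1 showed 0.36 and 0.23 and were not called. Of E2F, RB and G1 cyclin genes 9 of 28 were called higher and 3 lower. E2F2 rose by 1.46 ± 0.14, the repressor E2F8 was at least 2.19-fold higher, and cyclin D1, CCND1, fell by 0.74 on the log2 scale (SE 0.11).

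Of DNA replication genes 21 of 48 were called higher and 2 lower, with a median of 0.37, or 0.12 with arrays scaled to the median of detected probes, where 12 were called higher and 4 lower. With the compared groups alone 14 were called higher and 1 lower. MCM10, which helps to activate the replicative helicase, stood at 10.54, 10.53 and 10.30 at 8 h and at 9.32, 9.19 and 9.18 untreated (1.22 ± 0.11). POLD3, a subunit of polymerase delta, rose by 1.20 ± 0.17, ORC1 of the origin recognition complex by 1.09 ± 0.15 and GINS3 of the helicase by 1.07 ± 0.14. The letters TTTNNCGC, the core of the site that E2F factors bind, were present on either strand in 23 of 42 promoter windows of this group (54.8%), against 10.5% of the windows of genes tested, 15.8% of those called at least 2-fold higher and 5.76% of those called at least 2-fold lower. Of mitotic genes 2 of 41 were called higher and 12 lower, or 4 higher and 8 lower with arrays scaled to a common median. Their median of -0.05 turned to 0.08 under that scaling, and 19 of the 41 changes were positive. PLK1, the kinase that drives entry into mitosis, stood at 6.34, 7.10 and 6.46 against 8.29, 8.62 and 8.00 (-1.67 ± 0.25). INCENP of the chromosomal passenger complex was at -1.30 ± 0.23, the kinesin KIF20A at -1.14 ± 0.14 and cyclin F, CCNF, at -1.01 ± 0.14. The other INCENP probe, dim at a mean level of 5.02, showed -0.30 and was not called. The letters TTTGAA, the core of the cell cycle homology element of mitotic promoters, were present in 24 of 35 windows of this group (68.6%), against 10.1% of all windows of genes tested.

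**Figure D3:**
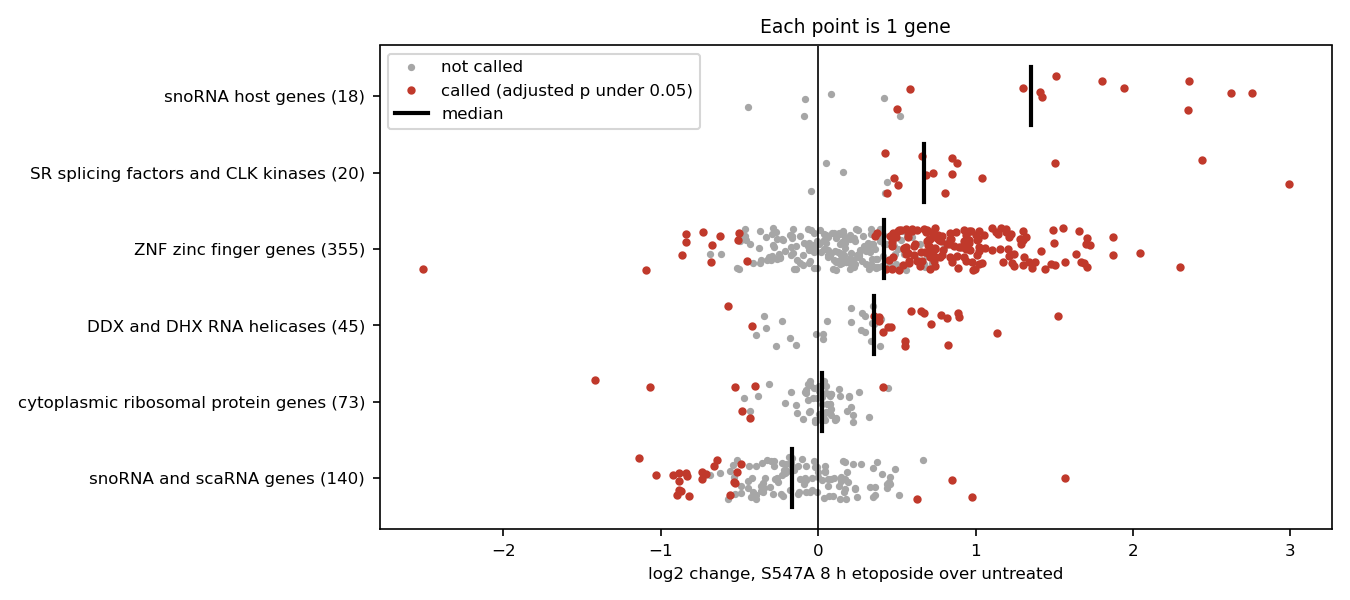
Log2 change of each tested gene of 6 RNA-related groups in S547A cells, 8 h etoposide over untreated (horizontal axis). Red points passed the test, grey points did not, and black bars are medians. Host genes have a median of 1.35 and the snoRNA genes one of -0.17.

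Most small nucleolar RNAs (snoRNAs) guide the modification of ribosomal RNA, and many, though not all, are cut from introns of host genes. Of host genes 12 of 18 were called higher and 0 lower, with a median of 1.35. SNHG17 stood at 11.39, 11.96 and 11.72 at 8 h and at 9.06, 9.08 and 9.06 untreated (2.62 ± 0.18). SNHG12 rose by 2.76 ± 0.18, SNHG15 by 2.35 ± 0.13 and TAF1D, which also encodes a factor of RNA polymerase I, by 2.35 ± 0.22. Of 140 snoRNA and scaRNA genes tested, 21 were called lower (15.0%, against 14.3% over all genes) and 4 higher (2.86%, against 16.1%). Their median of -0.17 was -0.01 with arrays scaled to a common median, where 8 were called lower and 5 higher. SNORD3D stood at 5.70, 5.78 and 5.77 against 6.87, 6.96 and 6.82 (-1.14 ± 0.15). By their place in the gene table, 22 tested snoRNA genes lie inside 11 host genes that were called higher. Those hosts had a median change of 1.80, while the 22 snoRNA genes had a median of -0.02 and a range of -0.57 to 0.51, with 0 called higher, 1 lower and 21 not called. The member called lower was SNORA61, inside SNHG12, which was chosen for naming after its value was seen. The kit that labelled the RNA primes on poly(A) tails, which mature snoRNAs lack, and what their probes read was not tested.

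Of SR splicing factors and the kinases that act on them 15 of 20 were called higher and 0 lower (median 0.67). CLK4, which phosphorylates SR proteins, was detected on no untreated array and was at least 6.46-fold higher, with 7.64, 8.25 and 8.01 against 4.79, 5.17 and 4.97. CLK1 rose by 2.44 ± 0.29 and the splicing factor gene SRSF6 by 1.04 ± 0.15. Of DDX and DHX RNA helicases 19 of 45 were called higher and 2 lower, led by DDX20 (1.52 ± 0.15), a partner of the SMN protein. Factors of nonsense-mediated decay were called higher in 6 of 15 cases and lower in 0, with SMG5 at 0.75 ± 0.14. The count was 2 higher when the compared groups alone were fitted, and 4 higher and 1 lower with arrays scaled to the median of detected probes. Zinc finger genes with a ZNF symbol, most of which encode DNA-binding proteins, form the largest group. Of 355 tested 156 were called higher (43.9%, against 16.1% over all genes) and 12 lower (3.38%, against 14.3%). Called at least 2-fold higher were 58, and the median was 0.42, or 0.38 with the 25 genes that have a bound held at it. ZNF211 stood at 7.88, 7.85 and 7.89 against 5.32, 5.56 and 5.85 (2.30 ± 0.20), ZNF697 rose by 2.04 ± 0.24 and ZNF256 by 1.87 ± 0.14. Cytoplasmic ribosomal protein genes depended on the scaling. With quantile normalization 1 of 73 was called higher and 6 lower (median 0.02), while with arrays scaled to the median of detected probes 0 were called higher and 48 lower (median -0.40). RPL28 was the lowest at -1.42 ± 0.23.

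Several regulators of development were among the genes that fell most. ZNF503, a transcriptional repressor of forebrain and limb development in mice, stood at 6.48, 7.14 and 7.01 at 8 h and at 9.33, 9.48 and 9.35 untreated (-2.51 ± 0.16). ID2, an inhibitor of bHLH factors, stood at 8.10, 7.90 and 7.93 against 10.48, 10.32 and 10.34 (-2.40 ± 0.12). GAS1, a co-receptor of hedgehog, was at -2.27 ± 0.15, the neural factor POU3F2 at -1.94 ± 0.16, BCL11A, the repressor of fetal globin, at -1.92 ± 0.15 and SOX2 at -1.48 ± 0.18. Arrays of both groups were apart for each of them, which the choice of the genes with the largest falls required. Over all genes tested, arrays of these groups did not overlap for 42%. In the Notch group 11 of 23 were called lower and 1, DTX2, higher (median -0.18). The ligand gene DLL1 stood at 6.97, 6.93 and 6.79 against 9.13, 9.13 and 9.32 (-2.29 ± 0.11), and the target genes HES5 (-2.19 ± 0.22) and HEY1 (-1.84 ± 0.10) and the ligand gene JAG2 (-1.24 ± 0.21) fell too. Of ID, BMP and SMAD genes 9 of 20 were called lower and 2 higher (median -0.49), among them the inhibitor SMAD6 (-1.57 ± 0.22) and ID3 (-1.09 ± 0.15), whereas SMAD4 rose by 0.81 ± 0.12.

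Of HOX genes, which set position along the body axis, 9 of 19 were called lower and 1 higher, with a median of -0.51. The median was -0.40 with the 2 genes that have a bound held at it. With arrays scaled to a common median 5 were called lower. HOXB8 stood at 4.92, 5.28 and 5.29 at 8 h, detected on 2 of those arrays, and at 7.56, 7.78 and 7.60 untreated (-2.48 ± 0.16). HOXC4 (-1.37 ± 0.14) and HOXC8 (-1.25 ± 0.17) fell as well. Wnt target and feedback genes had 6 of 20 lower and 2 higher, 1 lower and 2 higher under common-median scaling, and 4 lower and 1 higher without untreated replicate 1. The receptor gene FZD2 fell by 1.67 (SE 0.17) and the feedback gene AXIN2 by 0.74 (SE 0.15) on the log2 scale, while NKD2 rose by 1.18 ± 0.13. Other genes among the 25 with the largest falls were the protocadherin PCDH7 (-2.01 ± 0.13), the axon guidance cue SLIT2, the insulin-like growth factor binding protein IGFBP5 (-1.83 ± 0.17), JARID2 of Polycomb complex 2 (-1.75 ± 0.15) and the Wnt receptor ROR2, which was at least 2.23-fold lower.

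Genes of the amino acid and unfolded protein responses, many of them targets of ATF4, were called lower in 13 of 24 cases and higher in 4. Their median was -0.48, or -0.44 with the 1 gene that has a bound held at it. DDIT4, an inhibitor of mTORC1, stood at 8.09, 8.10 and 8.39 at 8 h and at 10.38, 10.29 and 10.83 untreated (-2.31 ± 0.17). The hormone gene STC2 was at -1.84 ± 0.15, the amino acid transporter gene SLC7A5 at -1.63 ± 0.15 and PSAT1 of serine synthesis at -1.55 ± 0.14. The 2 members that rose most were PPP1R15A, or GADD34, which brings a phosphatase to eIF2 alpha, at 2.57 ± 0.11, and ATF3. The glycine transporter gene SLC6A9, detected on no 8 h array, was at least 3.33-fold lower, with 4.75, 4.69 and 4.93 against 6.84, 6.83 and 7.15. Metallothionein genes, which buffer zinc and copper, had 3 of 5 tested called lower and 0 higher. MT1X stood at 7.58, 8.13 and 7.75 against 9.93, 10.29 and 9.80 (-2.19 ± 0.16), MT2A was at -1.34 ± 0.15 and MT1G at -1.09 ± 0.20, while MT1IP (0.45 ± 0.17) and MT1E (-0.04 ± 0.38) did not pass the test. These genes are near-identical copies, and probes may share signal among them. Of other zinc and copper genes 6 of 21 were called lower and 1 higher, with the zinc importer SLC39A10 at -1.20 ± 0.11, the copper pump ATP7B at -1.11 ± 0.16 and the zinc sensor MTF1 at 0.66 ± 0.14.

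Metabolic groups were lower in part. Of glycolysis genes 10 of 21 were called lower and 1, PFKFB4, higher (median -0.37), with 6 lower under common-median scaling. The glucose transporter gene SLC2A3 stood at 7.92, 8.02 and 7.77 at 8 h and at 9.20, 9.08 and 9.07 untreated (-1.22 ± 0.11), and PFKP was at -0.81 ± 0.12. INSIG1, which holds back sterol synthesis, stood at 9.84, 9.93 and 9.99 against 11.39, 11.54 and 11.40 (-1.53 ± 0.13), in a sterol group with 7 of 23 called lower and 1 higher. Oxidative phosphorylation genes had 17 of 76 lower and 3 higher (median -0.17), and 47 lower and 1 higher with arrays scaled to the median of detected probes. UQCR10 was the lowest of them at -1.17 ± 0.13, while its other probes showed -0.69, called, and -0.43, not called. Of oxidative stress genes 5 of 21 were called lower and 0 higher, or 8 lower under that scaling. Of interferon-related genes 6 of 24 were called higher (25%, against 16.1% over all genes) and 3 lower (12.5%, against 14.3%). Their median of 0.03 was -0.11 with the same scaling. IRF1, an NF-kB and interferon target that activates antiviral genes, stood at 9.85, 9.92 and 9.84 against 7.37, 7.44 and 7.27 (2.51 ± 0.14), and the peptide transporter gene TAP1 rose by 1.25 ± 0.14.

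Histone genes had 1 of 32 called higher and 5 lower (15.6%, near the 14.3% over all genes), and 0 higher and 3 lower without 8 h replicate 3. Heat shock genes had 4 of 18 higher (22.2%, against 16.1% over all genes) and 3 lower (16.7%, against 14.3%). The counts were 1 higher and 2 lower without 8 h replicate 3, and 1 higher and 8 lower with arrays scaled to the median of detected probes. Coactivators, deacetylases and corepressors that work with p65 had 1 of 20 higher, SIRT1 (0.72 ± 0.16), and 4 lower, led by the corepressor TLE1 (-1.62 ± 0.12). Tubulin genes had 7 of 22 higher and 2 lower, with TUBB3 at 1.06 ± 0.14, centromere genes 8 of 24 higher and 6 lower, and MYC and MAX network genes 1 of 11 higher and 3 lower. The tubulin counts were 5 higher and 6 lower with arrays scaled to the median of detected probes and 4 higher and 1 lower without untreated replicate 3. SOX, PAX, FOX and other developmental regulators had 3 of 34 higher and 9 lower, a balance that turned to 6 higher and 4 lower under common-median scaling. The median of that group, -0.03, and that of the tubulin genes, -0.04, both turned to 0.03 under the same scaling. Of housekeeping genes 1 of 11 was called higher and 2 lower, or 4 lower with arrays scaled to the median of detected probes. Leading genes outside the lists were CSRNP1, a nuclear protein induced by AXIN1 (3.09 ± 0.16), RASSF1, a tumour suppressor (3.06 ± 0.10, with 3.08 and 2.65 from its other probes), the ephrin ligand EFNA1 (2.73 ± 0.17) and the phospholipase gene PLA2G4C, at least 5.28-fold higher.

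Levels at 8 h were then set against those at 4 h in the same line. This comparison shares the 8 h arrays with the one against untreated cells and does not pair arrays by replicate number. It called 15.4% of genes, 998 higher at 8 h (8.28%) and 859 lower (7.13%). Group members called between the times are to be read against these shares. Called changes of at least 2-fold were 0.771% of genes higher and 0.448% lower, and arrays of the times did not overlap for 29.8% of genes. Late genes included several NF-kB targets. SGPP2 stood at 6.43, 6.22 and 5.66 untreated, 6.54, 6.57 and 6.29 at 4 h and 9.32, 9.04 and 9.20 at 8 h, a difference of 2.72 ± 0.19 between 8 h and 4 h (adjusted p = 5.73e-07). VCAM1 stood at 5.60, 6.06 and 5.50 at 4 h, and its difference between 8 h and 4 h was 2.42 ± 0.17. PLA2G4C rose by 1.87 between the times, TNFRSF9 by 1.85 and IL32 by 1.55. SELE rose by 1.92 between the times, the smaller part of its fitted log2 change of 5.94 over untreated background at 8 h. BTK, a kinase of B cell receptor signalling, was detected at neither 0 h nor 4 h and was at least 2.43-fold higher at 8 h than at 4 h. By contrast TNF (0.21), NFKBIA (0.17) and TNFAIP3 (0.32) had no call between 4 h and 8 h, and CXCL1 was lower at 8 h (-0.66).

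**Figure D4:**
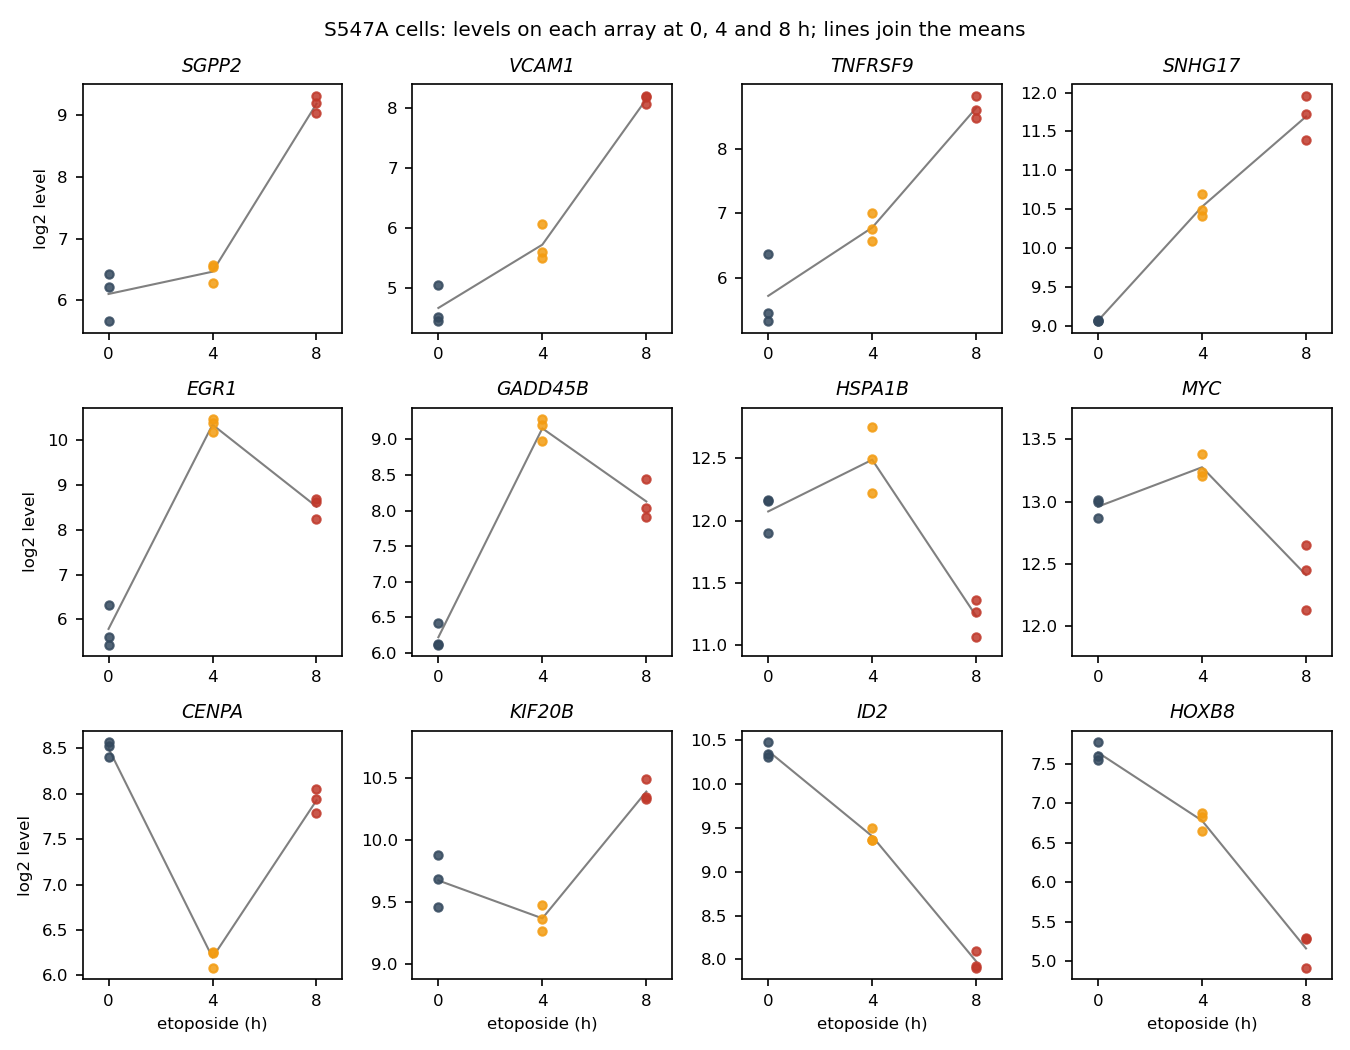
Level (log2 intensity) of 12 genes on each array of S547A cells at 0, 4 and 8 h of etoposide, with lines through the means and a scale of its own for each gene. SGPP2 and VCAM1 climb mainly after 4 h, EGR1 and GADD45B peak at 4 h, CENPA dips at 4 h, and ID2 and HOXB8 fall at each step.

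Some immediate early genes were lower at 8 h than at 4 h, 4 of 14 EGR and KLF genes (1 higher), 4 of 15 AP-1 and ATF genes (1 higher) and 6 of 21 IER, DUSP and ERK feedback genes (3 higher). EGR1 stood at 10.17, 10.47 and 10.39 at 4 h, and its difference between 8 h and 4 h was -1.83 ± 0.23, with no overlap between the arrays. GADD45B (-1.03), DUSP1 (-0.81), the kinase gene SGK1 (-1.47 ± 0.17), TRIB1 (-1.40 ± 0.12) and ADAMTS1 (-1.45 ± 0.17) were lower at 8 h than at 4 h as well. The heat shock genes HSPA1A and HSPA1B, 2 near-identical copies whose probes may share signal, were at -0.99 ± 0.12 and -1.26 ± 0.15. HSPA1B stood at 11.90, 12.17 and 12.16 untreated, 12.22, 12.50 and 12.75 at 4 h and 11.06, 11.26 and 11.36 at 8 h. MYC was also lower than at 4 h (-0.87).

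Mitotic genes were higher at 8 h than at 4 h in 21 of 41 cases and lower in 0, with a median of 0.45. With the 2 other scalings 16 and 20 were higher, and at most 1 lower. CENPA, the centromeric histone, stood at 8.52, 8.57 and 8.41 untreated, 6.08, 6.26 and 6.25 at 4 h and 7.94, 7.79 and 8.05 at 8 h. Its difference between 8 h and 4 h was 1.73 ± 0.14 (adjusted p = 2.61e-06), and at 8 h it still differed from untreated cells by -0.57. The other CENPA probe showed 1.44 between the times and, not called, -0.26 against untreated cells. HJURP, the chaperone of CENPA, differed by 1.18 ± 0.14, the kinesins KIF18A by 1.17 ± 0.21 and KIF20B by 1.02 ± 0.12, and these 3 were above untreated cells at 8 h. PLK1 differed by -0.08 and was not called. Replication genes were higher than at 4 h in 15 of 48 cases and lower in 1, host genes in 11 of 18 and 0, and SR and CLK genes in 10 of 20 and 0. With arrays scaled to a common median 4 replication genes and 4 SR and CLK genes were called higher. snoRNA and scaRNA genes were lower than at 4 h in 23 of 140 cases and higher in 1, with 7 lower under a common median. Of ATF4 and unfolded protein genes 9 of 24 were lower than at 4 h and 1 higher, of Notch genes 7 of 23 lower and of HOX genes 6 of 19. Under a common median these counts were 3, 4 and 3 lower and 0 higher.

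Whether the response at 8 h differed between S547A and wt cells was tested as a difference of the 2 responses. These responses share no arrays. It called 3 of 12055 genes (0.0249%), SELE, PI3 and VCAM1, all with the larger response in S547A cells and an adjusted p of 0.0103 each. The count of genes with the larger response in wt cells was 0. SELE stood at 10.66, 11.18 and 10.89 in S547A cells at 8 h and at 8.69, 8.75 and 8.71 in wt cells at 8 h. The difference of responses was 2.06 ± 0.27 on the log2 scale. PI3 stood at 9.70, 9.79 and 9.75 in S547A and 8.18, 8.50 and 8.17 in wt cells at 8 h, a difference of 1.26 ± 0.18. VCAM1 stood at 8.06, 8.20 and 8.17 in S547A and 6.11, 6.15 and 6.49 in wt cells at 8 h, a difference of 1.70 ± 0.24. The 3 genes were undetected in untreated cells of both lines, at levels of 4.45 to 5.15 in S547A and 4.40 to 5.06 in wt cells. Each difference of responses thus subtracts untreated levels that lie at background. At 8 h the arrays of the lines do not overlap for any of the 3. The calls rest on these same levels, so the separation adds no support, and its share over all genes was not counted. Within the lines, SELE was at least 49.8-fold higher at 8 h in S547A cells and at least 11.4-fold in wt cells. PI3 was at least 22.2-fold higher in S547A cells and at least 8.45-fold in wt cells. VCAM1 was at least 7.31-fold higher in S547A cells and at least 2.07-fold in wt cells. The further SELE probe gave a difference of 0.67 and the other VCAM1 probes 0.49 and 0.48, all dim.

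**Figure D5:**
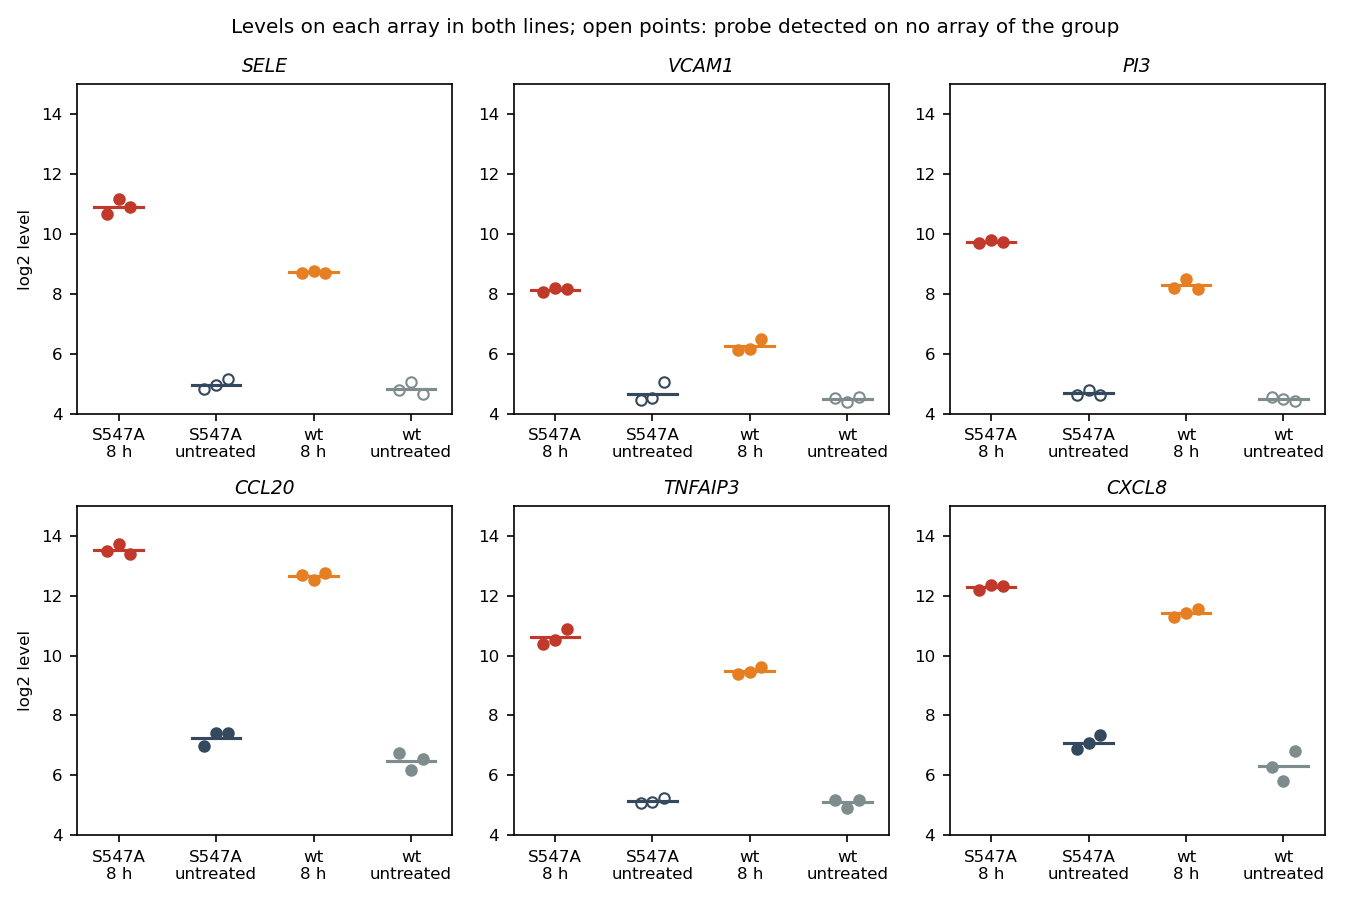
Level (log2 intensity) of 6 NF-kB target genes on each array of S547A and wt cells, at 8 h of etoposide and untreated, with bars at the means. Open points mark groups in which the probe was detected on no array. SELE, VCAM1 and PI3 differ in response between the lines, and CCL20, TNFAIP3 and CXCL8 were not called for such a difference. Each gene is read from its brightest probe, and a further CXCL8 probe gave a difference of 1.35.

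These calls depended on single arrays and on the scaling. Without replicate 1 of wt cells at 8 h 0 genes were called, with an adjusted p of 0.0547 for each of the 3, and with arrays scaled to the median of detected probes 0 were called, with adjusted p of 0.208 for SELE, 0.376 for PI3 and 0.219 for VCAM1. The unadjusted p was below 0.05 for 897 genes. RELA levels differed between the lines, with 9.68, 9.59 and 9.80 in S547A and 9.19, 9.25 and 9.23 in wt cells at 8 h, and 8.82, 8.69 and 9.09 in S547A and 7.43, 7.97 and 7.99 in wt cells untreated, and their part in the result was not tested. Other NF-kB targets were not called. The difference of responses was 0.10 for CCL20 (95% interval -0.40 to 0.60), 0.08 for CXCL8 (-0.49 to 0.64), 0.13 for NFKBIA (-0.32 to 0.59) and 0.37 for TNF (-0.02 to 0.76), none called. The CXCL8 probes disagree. A further one, at a mean level of 8.69, gave a difference of 1.35 and is not part of the test by gene. TNFAIP3, with a difference of 1.06 (0.64 to 1.49), missed the threshold at an adjusted p of 0.103. ICAM1 and CXCL2, chosen after their values were seen, missed the threshold at adjusted p of 0.0601 and 0.0567. ICAM1, another leukocyte ligand, was detected on all S547A arrays at 8 h (6.32, 6.12 and 6.60) and on none of wt cells at 8 h (4.79, 5.19 and 4.93). Of the 11 genes of the adhesion and matrix list, which holds SELE, VCAM1, PI3 and SGPP2, 10 had a positive difference. The median, 0.68, is the value of SGPP2. Of the 16 chemokine and cytokine genes 13 did (median 0.29). Over all genes 5644 of 12055 had a positive difference, with a median of -0.02. These lists include genes undetected in untreated cells, which pass the filter through groups where they are high. Their counts and medians therefore describe the genes that passed and add no separate support. The median 95% interval of the difference over all genes, without adjustment for the number of genes, reaches 0.54 on the log2 scale to either side.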

How the data were processed

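RNA of 18 HEK293 cultures (6 groups of 3) was extracted with RNeasy Mini columns, labelled with the Illumina TotalPrep-96 kit and read on Illumina bead arrays, per the labels' protocols. The deposited intensities are probe averages, not normalized, beside a detection p-value per probe and array, per the file headers, and the submitters' processing notes name GenomeStudio with no version. The authors' deposited normalized table holds intensities of the same arrays in the same rank order (rank correlation 1) and was used as an alternative. Slides and scan times are not given in the sources used here.

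The neqc function of limma 3.58.1 (R 4.3.3, offset 16) removed background estimated from the detection p-values, made the arrays' distributions equal by quantiles and took log2. Of 47231 probes, 30112 carry 1 gene symbol, and 22161 were detected at p under 0.05 on at least 3 arrays. Each of the 12055 genes is read from its brightest kept probe, and 3140 genes had others. Of 1088 called genes with another kept probe, 180 had one of opposite sign. Group means were fitted on all 18 arrays with 12 residual degrees of freedom and moderated, and adjusted p-values come from Benjamini-Hochberg over all genes. The fit was tested on simulated data. Alternatives were other scalings and offsets, no background correction, other filters, the mean of a gene's probes, the compared groups alone, the replicate block and each array left out. Arrays with the same replicate number at 8 h and 4 h deviated together (r = 0.129 to 0.147 for the 3 pairs) and count as paired by the rule used. The results given between 8 h and 4 h nonetheless come from group means without pairing, with 1857 calls. Pairing through the replicate block was an alternative, with 2122 calls. The number of arrays limits the precision, and the median SE of a change was 0.18.

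Named genes are RELA, the 25 called genes per direction with the largest change at 8 h and no overlap of arrays, up to 4 called members per direction of each list, the 10 per direction between 8 h and 4 h, and all called between the lines. Members and gene lists were chosen with earlier results of these data known, so no list is independent evidence of its direction. Promoter windows and gene neighbours are from RefSeq (GRCh38.p14).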

Additional observations from a re-analysis of the deposited data

Results flagged for a closer look

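The response to 8 h of etoposide differed between S547A and wt cells for 3 genes, tested as an interaction with limma and adjusted over all genes. All 3 were undetected on every untreated array of both lines, so the differences below subtract background levels. The fitted difference for SELE was 2.06 on the log2 scale, with 3 of 3 S547A arrays above every wt array at 8 h. The difference was 1.26 for PI3 and 1.70 for VCAM1, with the same separation of arrays. This separation comes from the levels behind the calls and adds no support to them. RELA itself was brighter in S547A than in wt cells in both conditions, and whether this has a part in the 3 differences was not tested.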

How the results depend on the processing

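Calls at 8 h against untreated cells numbered 2982 to 4042 over the alternatives, 3064 to 3255 with 1 array left out and 3918 with the replicate block, against 3674. The numbers do not pair these arrays by the rule used (r = 0.06 to 0.08 for the 3 pairs), although 6 of 6 correlated best with their own number, a hint from the data and not the design. Calls between 8 h and 4 h, 1857, were 1043 with arrays scaled to a common median and 672 when the compared groups alone were fitted, and 1311 to 1697 with 1 array left out, the lowest without replicate 1 at 4 h. The replicate block gave 2122. With a common median 67.2% of these calls pointed up, against 53.7%.

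The 3 genes called between the lines were 0 with arrays scaled to the median of detected probes, 6 with detection required on all 3 arrays of a compared group, 5 with the compared groups alone and 7 with an offset of 50. With 1 array left out the count was 0 to 4. It was 0 without replicate 1 of wt cells at 8 h, and 2 without replicate 3 of wt cells at 8 h or of untreated S547A cells, where PI3 was lost (adjusted p 0.0536 and 0.0519). PI3 was also lost with a common median (0.239), and VCAM1 with the mean of probes (0.198). The replicate block left 3.

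Of 260 named genes at 8 h, 196 kept direction and call in every setting. RPS13 turned to -0.044 with arrays scaled to the median of detected probes, where the median of all cytoplasmic ribosomal protein genes tested was -0.40. NCBP2 turned to -0.018 with the mean of kept probes, as its other probes showed -0.35 and -0.13. The 20 genes named between 8 h and 4 h kept both in all settings. Dim probes give bounds only, and 54 of the 499 genes at least 2-fold higher were undetected in untreated cells. Of these 54, only 27 have a bound of at least 2-fold.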
